A study of Mus musculus with 4 samples.

Results

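Interferon-low general capillary cells were picked out of the lungs of aged mice, in 4 droplet RNA libraries, as 12073 of the 68675 barcodes that passed the filters. They numbered 2879 and 2837 in BPTES replicates 1 and 2 and 2601 and 3756 in DMSO replicates 1 and 2. The mice were male C57BL/6, 19 months old at the start, and received BPTES, an inhibitor of glutamine breakdown, or the vehicle DMSO for 1 month. Both groups shared strain, sex, age and handling, and no untreated or young animals were included. Lungs were digested with Liberase for 1 hour, stained for CD45 and sorted. Each library mixed 20000 CD45-negative with 9000 CD45-positive cells of one tissue and was made with the GEM-X 3' v4 kit. The labels number the libraries but do not say that they came from separate mice, so the p-values below measure only the spread between these 4 libraries.

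General capillary cells are one of the endothelial cell types of the alveolar capillary bed. They lie beside aerocytes, the large thin cells across which gas exchange takes place, and are known as the capillary cells that divide and give rise to both types when the alveolus is repaired. They carry the lipase anchor Gpihbp1, the diaphragm protein Plvap and the receptor Kit, present antigen on MHC class II in mouse lung, and produce signals such as Cxcl12 and Bmp6. Glutamine is broken down to glutamate, a source of carbon for the TCA cycle and of glutathione.

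A member barcode had at least 500 genes, at least 1000 UMIs (unique molecular identifiers, each marking 1 captured RNA molecule) with mitochondrial genes giving no more than 10% of the UMIs. It had a UMI of the endothelial cadherin Cdh5 and of at least 3 of the 5 capillary genes Gpihbp1, Plvap, Kit, Sema3c and Aplnr. It had UMIs of fewer than 2 of the aerocyte genes Ednrb, Apln and Fibin, of fewer than 3 of the 5 interferon-induced genes Ifit1, Ifit3, Ifi44, Oasl2 and Cmpk2, and none of Slc6a2 (venous), Gja5 (arterial), Prox1 (lymphatic) or Ptprc (the gene of CD45). These 18 genes chose the cells and are described here without a test. Gpihbp1 was detected in 95.9% to 97.5% of members, Plvap in 90.8% to 93.7%, Kit in 90.7% to 93.4% and Sema3c in 98.9% to 99.3%. Aplnr was detected in 42.0% and 33.4% of members with BPTES, against 31.5% and 28.8% with DMSO. In aerocytes of the same libraries, Kit was found in 1.76% to 3.54% of barcodes and Plvap in 6.07% to 9.79%. Gpihbp1 was found in 22.04% to 27.01% of aerocytes and Sema3c in 74.3% to 82.75%. Venous cells held Plvap in 94.02% to 95.57%, Gpihbp1 in 86.25% to 90.39% and Sema3c in 94.3% to 97.65%. Kit was in 27.83% to 31.24% of venous cells and Aplnr in 11.57% to 17.29%. Plvap, Gpihbp1 and Sema3c were thus common in venous cells too. Barcodes just inside the capillary limit, with exactly 3 of the 5 genes, made up 12.3% to 14.2% of the Cdh5 barcodes that met every other condition. Those just outside it, with 2, made up 6.35% to 7.44%. The median barcode had 6297.5 to 7854 UMIs with 3 genes and 3282.5 to 4094 with 2, so the limit also separates depths. At the interferon limit, barcodes with 2 of the 5 interferon genes were 13.9% to 19.9% of general capillary cells, and those with 3, which were left out, were 7.62% to 11.7%. The median general capillary barcode with 3 or more of them had 14041 to 15092 UMIs, against 11696.5 to 12984 in members. This limit therefore separates depths as well.

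The members' UMIs summed to 34575775 and 37169372 with BPTES, against 30620948 and 43650181 with DMSO. The median member had 11994, 12984, 11789 and 11696.5 UMIs in that order. Among all kept barcodes, of any cell type, 65 to 104 occurred in both libraries of each pair. Members with UMIs of at least 3 markers of another cell class (epithelial, mesenchymal, mesothelial or blood) were 46.4% and 39.3% of members with BPTES, against 22.5% and 34.7% with DMSO. No doublet caller was run, and values of several lists are also given without these barcodes.

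Members made up a similar part of the CD45-negative barcodes in both groups. Of the kept barcodes with no Ptprc UMI, they were 27.1% and 27.3% with BPTES and 26.6% and 29.7% with DMSO. The means were 27.2% ± 0.129 (SD, n = 2) and 28.2% ± 2.16 (SD, n = 2). The difference of −0.944 percentage points lay within the spread of the DMSO libraries (two-sided exact permutation test, p = 1; the smallest p that 2 libraries against 2 allow is 0.333). It was 0.58 points without DMSO replicate 2. The interferon-high cells that the rule leaves out were 25.2% and 14.9% of all general capillary cells with BPTES and 18.2% and 22.6% with DMSO, so the groups overlapped.

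UMIs were summed over the members of each library and compared between the 2 BPTES and the 2 DMSO libraries with edgeR's quasi-likelihood test. Levels are CPM, a gene's UMIs per 1000000 UMIs of the library's sum after TMM scaling. A positive log2 fold change means a higher level with BPTES. The SE beside it is its absolute value divided by the square root of the test's F statistic. It was thus derived from the test and adds nothing to the p-value. The CPM compare a gene between libraries, and levels of different genes are not compared, because transcripts differ in how well they are captured. No gene passed an adjusted p of 0.05 among 15875 tested, with the smallest adjusted p at 0.172. An unadjusted p under 0.05 was reached by 3037 genes (19.1%), 1648 of them higher with BPTES (10.4%) and 1389 lower (8.75%). DESeq2 on the same sums called 541 of 14330 genes (3.78%), 361 higher (2.52%) and 180 lower (1.26%). Without BPTES replicate 1 edgeR called 459 genes and without DMSO replicate 1 it called 14, while without either of the other libraries it called 0. The genes below are therefore described by their values in each library and by whether the 2 groups overlap. Of all tested genes, 26.8% lay higher in both BPTES libraries than in both DMSO libraries and 27.9% lay lower in both, which is the background for every such count below. The median log2 fold change of all tested genes was −0.01. The medians of 6 lists (VEGF and angiopoietin signalling, BMP and TGF-beta signalling, lipid handling, leukocyte adhesion, coagulation, and junctions) lay between −0.09 and 0.04 and had the other sign under at least 1 alternative, so no direction is read from them.

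**Figure D1:**
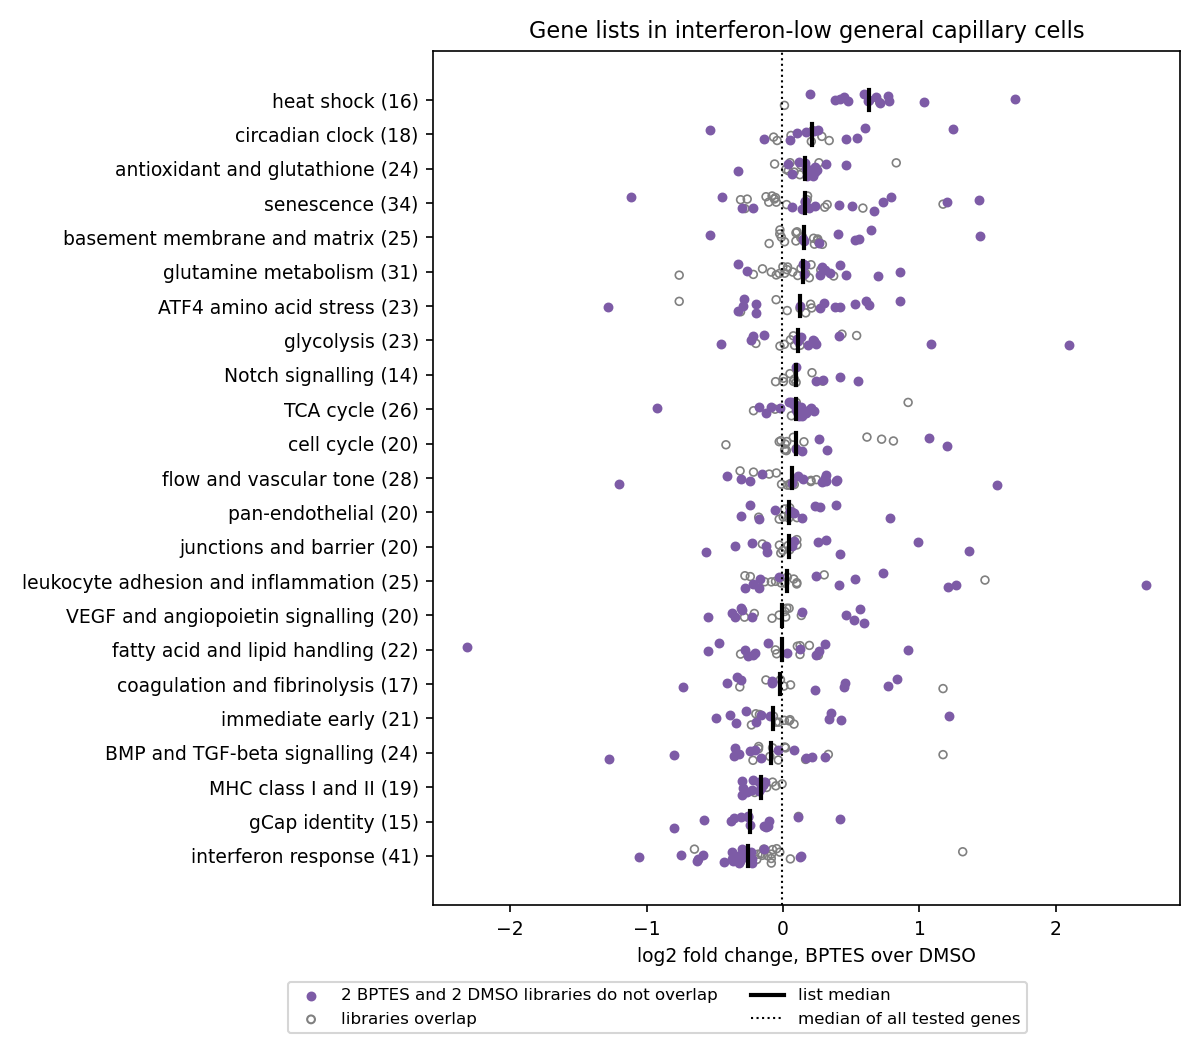
Log2 fold change of BPTES over DMSO (x axis) for the tested genes of 23 lists (y axis, number of tested genes in brackets), 1 point per gene, filled where the 2 BPTES libraries do not overlap the 2 DMSO libraries. Black bars mark list medians and the dotted line the median of all 15875 genes. The heat shock list has the highest median, 0.63, and the interferon response list the lowest, −0.26.

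Heat shock genes stood highest of the lists. Their proteins, the chaperones, hold and refold damaged or newly made proteins and are made in quantity after heat or other protein stress. Of 16 tested members, 14 lay higher in both BPTES libraries and 0 lower, and their median log2 fold change was 0.63, or 0.34 without BPTES replicate 2. At an unadjusted p under 0.05 there were 12, and DESeq2 called 7. Hspa8, the constitutive Hsp70, had 588 and 822 CPM with BPTES against 396 and 429.7 with DMSO (log2 fold change 0.77, SE 0.16). The co-chaperone Dnaja1 had 361 and 535 CPM against 267 and 258 (0.77, SE 0.18). Hsp90ab1, the constitutive Hsp90, had 831 and 1182 CPM against 571 and 657 (0.71, SE 0.18). In all of these the groups did not overlap and BPTES replicate 2 lay well above BPTES replicate 1.

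The mitochondrial chaperonin followed the same order of libraries. Hspd1, which encodes Hsp60, had 78.7 and 104 CPM with BPTES and 55.6 and 62.1 with DMSO. Its partner Hspe1 had 53.4 and 76.1 CPM against 40.9 and 44.8. Hspa5, the Hsp70 of the endoplasmic reticulum, differed less, with 418 and 577 CPM against 384 and 382. Hsph1, a nucleotide exchange factor of Hsp70, had 20.7 and 58.9 CPM with BPTES and 10.6 and 13.8 with DMSO. Hspa1a, an inducible Hsp70, had 30.1 and 77.4 CPM against 26.7 and 25.7. Its near-identical copy Hspa1b had 12.4 and 38.8 CPM against 18.0 and 13.5, and because reads of the 2 copies can be assigned to either, both values are uncertain. Hspa1b and the co-chaperone Bag3, at 128 and 151 CPM against 144 and 133, were the members whose groups overlapped. Without BPTES replicate 2 the list's median was 0.34, and without BPTES replicate 1 it was 0.82.

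**Figure D2:**
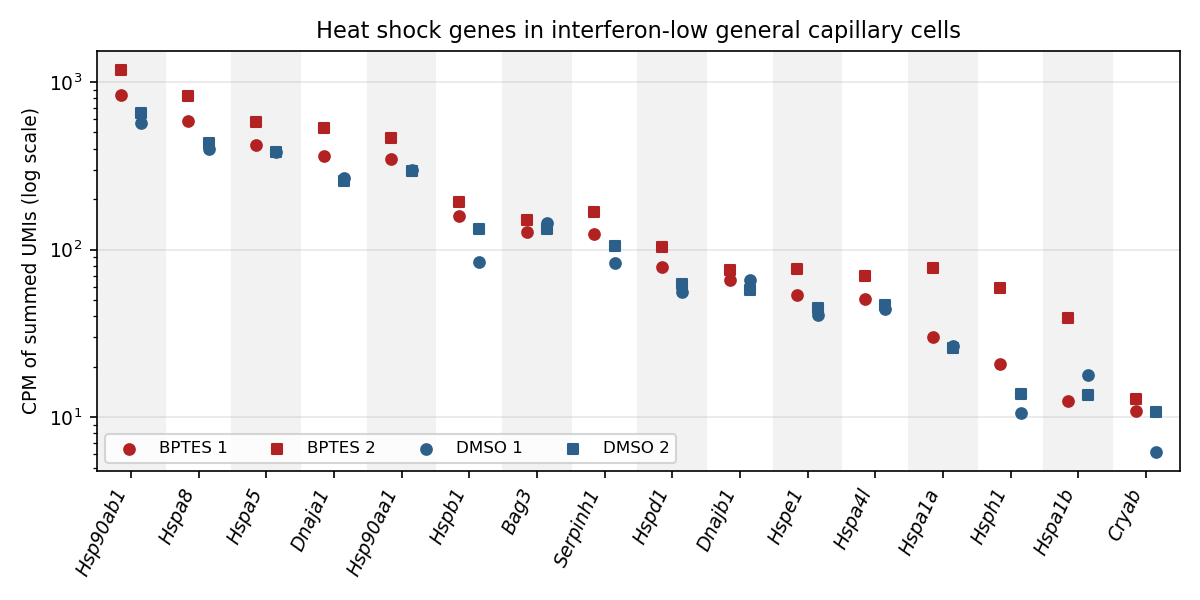
CPM of summed UMIs (log axis) for the 16 heat shock genes in each library, BPTES in red and DMSO in blue, replicate 1 as circles and replicate 2 as squares. For 14 genes both red points lie above both blue ones, and BPTES 2 is the highest library for all 16.

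In terms of cells, Hspa8 was detected in 96.2% and 97.3% of members with BPTES and 91.1% and 92.3% with DMSO. After every barcode had been thinned to 3000 UMIs, the shares were 76.9% and 84.7% against 64.7% and 67.6%. In barcodes with Ptprc and no Cdh5, which are leukocytes by this gate, the thinned shares were 80.6% and 88.1% against 70.6% and 75.1%, so the same order of groups was seen outside the endothelium. Members without UMIs of 3 markers of another class gave the list a median of 0.71, with 14 of 16 genes higher in both BPTES libraries (26.7% of genes in that comparison) and 0 lower. Summed in other cells of the same libraries, the list's median was 0.58 in interferon-high general capillary cells, 0.64 in aerocytes and 0.56 in venous cells. These sets share libraries and are not independent of one another.

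Heat shock promoters are known for paired GAA units bound by the factor HSF1, and the windows that hold them are shown because these genes stood together. Promoter sequences were available for 12 of the 16 genes (RefSeq, GRCm38.p6). The letters GAANNTTC, which read the same on both strands, occurred within 250 bases before the start of 6 of these 12 genes (50.0%), namely Hspa1a, Hspa1b, Hspb1, Dnaja1, Hspd1 and Hspe1. They occurred in such a window of 7.73% of all 27025 genes with a promoter sequence, and in 6.69% of all promoters of that length. A match of these letters is not evidence of binding. Of the windows shown, those of Dnaja1 and Hspe1 overlap annotated exons, with exons of both strands considered. Capitals mark the letters found in the windows below, each written 5′ to 3′ along the gene, on chr5:135887796-135887855 (plus strand, first letter found 97 bases before the start) for Hspb1, chr17:34972227-34972286 (minus strand, 104 bases before) for Hspa1a, chr4:40722334-40722361 (plus strand, 124 bases before) for Dnaja1 and chr1:55088054-55088081 (plus strand, 84 bases before) for Hspe1, whose start lies next to that of Hspd1.
Hspb1: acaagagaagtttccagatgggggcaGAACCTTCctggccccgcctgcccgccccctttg
Hspa1a: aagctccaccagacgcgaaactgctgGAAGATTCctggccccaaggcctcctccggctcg
Dnaja1: aaagcctctaGAAAATTCtacgaggctc
Hspe1: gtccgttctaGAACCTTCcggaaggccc
The Hspb1 window holds GAACCTTC and the Hspa1a window GAAGATTC. A second match in Hspb1, 20 bases further upstream, is GAAGTTTC and lies in the same window, left in small letters. Hspb1, a small heat shock protein, had 158 and 191 CPM with BPTES and 84.1 and 133 with DMSO. Hspb1, Hsph1, Hspe1 and Hspa1a were added to the text after their values had been seen.

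The interferon response genes had the lowest median of the 23 lists under this gate, though not with the interferon-high cells included or with the gate on thinned barcodes. They are induced through STAT and IRF factors by type I and type II interferons and serve antiviral defence and antigen presentation. The choice of cells bears on this list, because barcodes with 3 or more of 5 interferon-induced genes had been left out of both groups. Of 41 tested members outside those 5, 21 lay lower in both BPTES libraries and 2 higher, with a median log2 fold change of −0.26, and 14 were lower at an unadjusted p under 0.05 (DESeq2 called 5). Without BPTES replicate 2 the median was −0.16. With the interferon-high cells put back, it was −0.18, against −0.23 for the capillary identity genes, and within the interferon-high cells alone it was −0.06, with 14 of 41 lower (22.9% of all genes in those cells) and 6 higher (23%). In venous cells, which were not gated on interferon genes, it was −0.18, with 19 of 41 lower (21.4% of all genes there) and 0 higher (21%). In aerocytes it was −0.06, with 7 of 36 lower (18.8% of all genes there) and 0 higher (19.4%). The immunity-related GTPase Iigp1 had 222 and 172 CPM with BPTES and 367 and 296 with DMSO (log2 fold change −0.75, SE 0.15). The guanylate-binding protein Gbp4 had 89.4 and 84.6 CPM against 121 and 114 (−0.43, SE 0.07). Irgm1, a GTPase of cell-autonomous defence, had 79.8 and 72.0 CPM against 100.2 and 96.6 (−0.37, SE 0.07). In none of these genes did the groups overlap.

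Irf1, a transcription factor of the interferon-gamma response, had 375 and 336 CPM with BPTES and 494 and 426 with DMSO. Trim30a, a tripartite-motif protein, had 101 and 97.1 CPM against 127 and 120.4. Gbp3 had 39.0 and 35.1 CPM against 46.4 and 47.0, and Stat2, a transcription factor of type I interferon signalling, had 113 and 112 against 140.4 and 125. The members that lay higher with BPTES were Ifitm3, at 1529 and 1483 CPM against 1352 and 1414, and Ly6e, at 1451 and 1404 against 1295 and 1317. These are membrane proteins made in endothelium at a high level without interferon, and their differences of 0.12 and 0.13 on the log2 scale had unadjusted edgeR p-values of 0.172 and 0.145.

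Promoters of interferon-stimulated genes are known for a repeat bound by IRF and STAT factors. Its core was searched as GAAA, any 2 bases and GAAA again, or as TTTC, any 2 bases and TTTC on the other strand. It stood within 250 bases before the start of 15 of the 29 list genes with a promoter sequence (51.7%), against 3.46% of all 27025 genes with a promoter sequence and 2.98% of all promoters of that length. The 4 windows below belong to list members whose groups did not overlap, and capitals mark the letters found. Their positions are chr7:104465194-104465255 (minus strand, first letter found 36 bases before the start) for Trim30a, chr10:128270250-128270311 (plus strand, 222 bases before) for Stat2, chr3:142559989-142560018 (plus strand, 45 bases before) for Gbp3 and chr11:48871431-48871460 (minus strand, 30 bases before) for Irgm1, all in GRCm38.p6.
Trim30a: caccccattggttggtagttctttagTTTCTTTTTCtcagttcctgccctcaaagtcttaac
Stat2: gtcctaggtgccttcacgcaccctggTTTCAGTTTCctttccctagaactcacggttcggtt
Gbp3: caggacacagTTTCAGTTTCtatttcccag
Irgm1: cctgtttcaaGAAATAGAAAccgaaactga
In Gbp3 and in Irgm1 a second match overlapped the one shown. The Irgm1 window overlaps an annotated exon, with exons of both strands considered. A match describes the letters alone and says nothing of which factor acts there.

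Genes of antigen presentation lay on the same side. Of 19 tested MHC class I and II genes, 12 lay lower in both BPTES libraries and 0 higher, with a median of −0.16 (5 at an unadjusted p under 0.05, and 0 by DESeq2). The median was −0.11 without BPTES replicate 2 and −0.26 without DMSO replicate 2. Tap1, a subunit of the peptide transporter, had 58.2 and 52.3 CPM with BPTES and 70.1 and 66.0 with DMSO. Nlrc5, the activator of class I genes, had 69.3 and 70.4 CPM against 87.5 and 80.0. Cd74, the invariant chain of class II, had 1147 and 935 CPM against 1359 and 1205, and B2m, the light chain of class I, 2711 and 2541 against 2861 and 2901. The heavy chains H2-K1 (1393 and 1314 CPM against 1546 and 1515), H2-D1 (1733 and 1566 against 1809 and 1821) and H2-Q7 (414 and 357 against 479 and 467) were ordered alike. Class I heavy chain genes are close relatives whose reads can be split between them, so their separate levels are uncertain. The list's median was −0.15 in interferon-high general capillary cells, with 10 of 19 lower (22.9% of all genes there) and 1 higher (23%). In venous cells it was −0.20, with 15 of 19 lower (21.4% of all genes there) and 0 higher (21%). In aerocytes it was −0.16, but with only 1 of 18 lower (18.8% of all genes there) and 1 higher (19.4%).

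**Figure D3:**
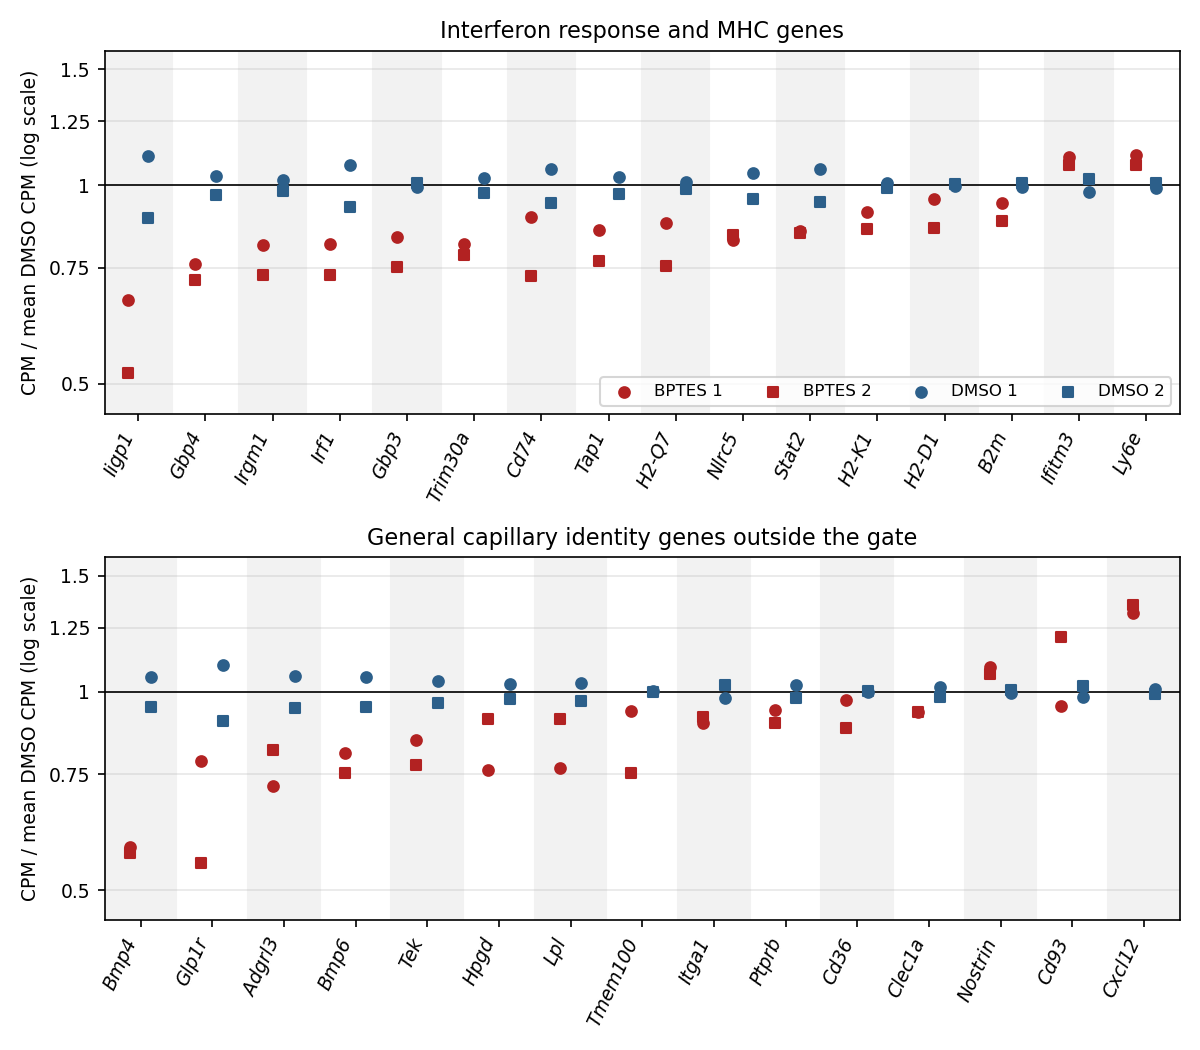
CPM in each library divided by the mean CPM of the DMSO libraries (log axis, 1 marked by a line) for interferon response and MHC genes named in the text (upper panel) and for the 15 general capillary identity genes outside the gate (lower panel). BPTES libraries are red and DMSO libraries blue, and red points lie below the line for most genes, with Ifitm3, Ly6e, Nostrin and Cxcl12 above it in both BPTES libraries.

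Known general capillary genes that were not used in the gate mostly lay lower with BPTES. Of 15, 12 lay lower in both BPTES libraries, 2 higher and 1 overlapped, and the median was −0.24, or −0.16 without BPTES replicate 1 and −0.15 without BPTES replicate 2. At an unadjusted p under 0.05 there were 6 lower and 1 higher, and DESeq2 called 5 lower and 1 higher. Bmp4, a bone morphogenetic protein ligand, had 17.5 and 17.1 CPM with BPTES and 31.7 and 28.5 with DMSO (log2 fold change −0.80, SE 0.09). Bmp6, a ligand known to act on alveolar neighbours and on the endothelium itself, had 1091 and 1016 CPM against 1422 and 1281 (−0.36, SE 0.09). Adgrl3, an adhesion receptor, had 1724 and 1954 CPM against 2533 and 2261 (−0.38, SE 0.11). The ligands and the receptor were thus separated by group in every library.

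Tek, the receptor of angiopoietins, had 1015 and 930.1 CPM with BPTES and 1247 and 1157 with DMSO. Glp1r, the receptor of glucagon-like peptide 1, had 51.4 and 36.0 CPM against 71.7 and 59.2. Hpgd, which breaks down prostaglandins, had 2194 and 2629 CPM against 2960.5 and 2814. The abundant genes Ptprb (a receptor phosphatase that restrains Tek, 3418 and 3271 CPM against 3729.9 and 3561) and Cd36 (a fatty acid receptor, 2554 and 2316 against 2621 and 2632) differed by −0.12 and −0.11 on the log2 scale. The members that lay higher with BPTES were the chemokine Cxcl12, at 804 and 827 CPM against 616 and 607 (log2 fold change 0.42, SE 0.07), and Nostrin, which binds endothelial nitric oxide synthase, at 727 and 708 against 663 and 670.5. The list's median was −0.22 in interferon-high general capillary cells, −0.19 in venous cells and −0.02 in aerocytes. Whether the BPTES difference was of another size in aerocytes or venous cells was tested gene by gene as described further on. It was not tested against the interferon-high cells.

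Of 20 pan-endothelial genes, 8 lay higher and 4 lower, with a median of 0.05 that was 0.02 without BPTES replicate 2 and 0.10 without BPTES replicate 1. Pecam1 (1694 and 1915 CPM with BPTES, 1636 and 1727 with DMSO) overlapped, and Cldn5 differed by 0.08 on the log2 scale (1468 and 1403 against 1339 and 1373). Cd34, a sialomucin of capillary endothelium, had 159 and 194 CPM with BPTES and 98.4 and 106 with DMSO (log2 fold change 0.78, SE 0.11). Endomucin (Emcn), another sialomucin, had 409.5 and 416 CPM against 297 and 335. Ramp2, the partner of the adrenomedullin receptor, lay lower, with 1412 and 1425 CPM against 1762 and 1596. Cd34 was detected in 59.4% and 59.0% of members against 38.6% and 41.8%. After thinning to 3000 UMIs it was in 31.2% and 31.5% against 19.5% and 20.6%, and in 2.02% to 2.40% of leukocyte barcodes. Cd34 was also higher with BPTES, without overlap, in venous cells (106.8 and 91.4 CPM against 73.9 and 49.3). The same held in aerocytes (767.5 and 787.8 CPM against 625.9 and 737.0).

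Genes of coagulation and fibrinolysis were split, with 5 of 17 higher, 6 lower and a median of −0.02. Vwf, which encodes von Willebrand factor and is also a marker of venous endothelium, had 194 and 222 CPM with BPTES and 383 and 309.8 with DMSO (log2 fold change −0.73, SE 0.12, DESeq2 adjusted p = 5.3e-06, not called by edgeR). After thinning it was detected in 31.6% and 32.2% of members against 49.9% and 44.2%, and in 1.92% to 2.70% of leukocyte barcodes. Venous cells held it in 91.2% to 94.4% in every library. Its level was lower with BPTES in venous cells too, at 2236 and 2224 CPM against 2764 and 2363. Entpd1, an ectonucleotidase that clears ATP and ADP from blood, had 271 and 289 CPM against 372 and 335. Ptgs1, a cyclooxygenase, had 51.6 and 50.5 CPM against 75.1 and 60.7. Thrombomodulin (Thbd) differed by −0.08 on the log2 scale, and Anxa2, which assembles plasmin activators, had 262 and 341 CPM against 209 and 232.

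The remaining signalling lists of the vessel wall are given by their counts. Among 28 genes of flow and vascular tone, 10 lay higher and 5 lower (median 0.07, or 0.04 without BPTES replicate 2 or DMSO replicate 1 and 0.11 without DMSO replicate 2). Nos3, the endothelial nitric oxide synthase, had 57.2 and 53.4 CPM with BPTES and 42.9 and 46.1 with DMSO, while the flow-responsive factor Klf2 overlapped, with 1663 and 1347 CPM against 1117 and 1496. Cavin3, a coat protein of caveolae, had 54.0 and 60.2 CPM against 44.7 and 47.8. Among 20 genes of VEGF and angiopoietin signalling, 5 lay higher and 6 lower (median −0.01). Angpt1, the activating ligand of Tek, had 41.3 and 41.0 CPM against 60.9 and 59.8 (log2 fold change −0.55, SE 0.06). The semaphorin receptors Plxnd1 (111 and 126 CPM against 75.2 and 90.3) and Plxna2 (282 and 339 against 181 and 231) lay on the other side.

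Of 24 genes of BMP and TGF-beta signalling, 4 lay higher and 9 lower (median −0.09, or 0.0027 without DMSO replicate 1 and −0.05 without BPTES replicate 1), with Bmp4 and Bmp6 among the lower ones and Bmper, an extracellular BMP-binding protein, at 3.05 and 3.72 CPM against 5.41 and 10.9. Of 14 Notch signalling genes, 5 lay higher and 0 lower (median 0.10, or 0.21 without barcodes holding 3 markers of another class and 0.16 without DMSO replicate 1). The Notch target Hes1 had 221 and 259 CPM with BPTES and 178 and 149.6 with DMSO (log2 fold change 0.55, SE 0.12). The receptor Notch1 had 248 and 269 CPM against 224 and 215. Its ligands Jag2 (39.1 and 46.7 against 31.3 and 32.8) and Dll1 (98.3 and 88.9 against 72.5 and 80.5) were ordered alike. Of 20 genes of junctions and barrier, 7 lay higher and 5 lower (median 0.04, or −0.03 without BPTES replicate 2). S1pr1, a barrier-tightening receptor, had 786 and 843 CPM against 604 and 702. Gja1, a connexin, had 11.1 and 14.1 CPM against 6.53 and 6.20, and the tight junction protein occludin (Ocln) 34.0 and 32.8 against 39.9 and 38.2.

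Of 25 basement membrane and matrix genes, 8 lay higher and 1 lower, with a median of 0.16. The median was 0.02 without BPTES replicate 2, 0.25 without BPTES replicate 1 and 0.24 without DMSO replicate 2. Of the 25 genes, 6 reached an unadjusted p under 0.05 and DESeq2 called 3. Col4a1, a chain of type IV collagen, had 863 and 1116 CPM with BPTES and 601 and 770.4 with DMSO. Sparc, a collagen-binding matrix protein, had 565 and 749.9 CPM against 419.5 and 474, and its relative Sparcl1 had 337 and 354 against 270.1 and 254. Col18a1 had 16.2 and 35.4 CPM against 9.31 and 9.66, and the protease Adamts1 had 789 and 726 against 643 and 617.

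Lipid handling genes were split, with 6 of 22 higher, 8 lower and a median of −0.01 that was −0.10 without barcodes holding 3 markers of another class. The receptor of high-density lipoprotein Scarb1 had 192 and 191 CPM with BPTES and 165 and 159 with DMSO. Lipoprotein lipase (Lpl) had 98.9 and 117 CPM against 133 and 125, and Cpt1a, which takes fatty acids into mitochondria, 80.8 and 76.0 against 93.9 and 88.7. Fabp4, a fatty acid binding protein, had 7.20 and 13.7 CPM against 74.8 and 30.1 (log2 fold change −2.31, SE 0.49), but it was detected in 0.347% and 0.916% of members with BPTES and 1.42% and 1.14% with DMSO. The 10 barcodes richest in it held 96.7% to 100% of its UMIs in each library, so its sum rests on few cells. Without barcodes holding 3 markers of another class it had 0.30 and 1.45 CPM against 74.2 and 29.6 (log2 fold change −5.81, SE 0.61, adjusted p of 0.0486 in edgeR).

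Genes of glutamine metabolism, the pathway on which the drug acts, mostly overlapped between treatments. Of 31, 11 lay higher, 2 lower and 18 overlapped, with a median of 0.15 that was 0.05 without BPTES replicate 2. At an unadjusted p under 0.05 there were 3 higher and 0 lower, against 10.4% and 8.75% of all genes, and DESeq2 called 1. The list's median was 0.04 in interferon-high general capillary cells, 0.08 in aerocytes and 0.03 in venous cells. Glutamine synthetase (Glul) had 139 and 121 CPM with BPTES and 121 and 112 with DMSO, and glutamate dehydrogenase (Glud1) 196 and 211 against 187 and 177. The glutamine transporters Slc1a5 (12.5 and 16.8 CPM against 12.9 and 11.4) and Slc38a2 (374 and 431 against 322 and 383) overlapped. Of the enzymes that take nitrogen from glutamine, Gfpt1 of hexosamine synthesis had 51.1 and 53.2 CPM against 44.6 and 42.0, and Ppat of purine synthesis had 18.2 and 19.8 against 15.3 and 14.6. Other enzymes of this kind in the list overlapped or lay on either side.

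Gclc, the rate-limiting enzyme of glutathione synthesis, had 58.9 and 64.8 CPM with BPTES and 45.4 and 44.5 with DMSO (log2 fold change 0.46, SE 0.07). Its 10 richest barcodes held 25.6% and 17.9% of its UMIs with BPTES and 6.20% and 5.70% with DMSO. Among members without UMIs of 3 markers of another class the log2 fold change was 0.13. Across 24 antioxidant and glutathione genes, 13 lay higher and 1 lower, with a median of 0.16 that was 0.10 without BPTES replicate 2. The list's median was 0.03 in interferon-high general capillary cells, 0.04 in aerocytes and 0.16 in venous cells. Peroxiredoxin Prdx1 had 270.5 and 299 CPM against 243 and 247, thioredoxin Txn1 282 and 337 against 254 and 265, and glutathione peroxidase Gpx1 73.5 and 80.9 against 63.6 and 67.4. DESeq2 called 1 gene of this list and edgeR 0, with 5 higher at an unadjusted p under 0.05.

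Energy metabolism differed little per gene. Of 26 TCA cycle genes, 16 lay higher and 5 lower, with a median of 0.10, and 11 lay higher and 5 lower without barcodes holding 3 markers of another class. Malate dehydrogenase Mdh2 had 97.8 and 98.5 CPM with BPTES and 83.2 and 87.4 with DMSO, and succinate dehydrogenase subunit Sdhc 56.8 and 57.9 against 49.3 and 51.1. Me3, a mitochondrial malic enzyme, stood apart from its list with 31.7 and 25.4 CPM against 62.3 and 46.4 (log2 fold change −0.93, SE 0.17, DESeq2 adjusted p = 6.03e-05, not called by edgeR). After thinning it was detected in 7.78% and 6.47% of members against 13.4% and 10.4%, and in 0.207% to 0.397% of leukocyte barcodes. In venous cells Me3 was also lower with BPTES, at 132.3 and 119.0 CPM against 162.2 and 135.6. Of 23 glycolysis genes, 10 lay higher and 4 lower (median 0.11, or 0.04 without barcodes holding 3 markers of another class, 0.06 without BPTES replicate 2 and 0.21 without BPTES replicate 1). Lactate dehydrogenase Ldha had 102 and 117 CPM against 82.9 and 82.3, and Gapdh 208 and 216 against 186 and 176.

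The response to amino acid shortage through the factor ATF4 was mixed. Of 23 tested genes, 9 lay higher and 6 lower (median 0.13, or 0.05 without BPTES replicate 2), with 6 higher and 2 lower at an unadjusted p under 0.05. Atf4 itself had 258 and 287 CPM with BPTES and 246 and 253 with DMSO. Sesn2, a sensor of leucine, had 5.07 and 6.34 CPM against 3.52 and 3.96, and Cebpg, a partner of ATF4, 89.6 and 105 against 74.8 and 83.5. Atf3 lay lower, with 672 and 657 CPM against 788 and 739.

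Genes linked to senescence were measured because inhibitors of glutamine breakdown are known for their use against senescent cells. Of 34, 13 lay higher, 4 lower and 17 overlapped (median 0.16). Without barcodes holding 3 markers of another class, 11 of 33 lay higher and 9 lower. The median was 0.07 without BPTES replicate 2, 0.08 without DMSO replicate 1 and 0.29 without DMSO replicate 2. It was −0.018 in interferon-high general capillary cells, −0.004 in aerocytes and −0.009 in venous cells. Cdkn2a, which encodes the cell cycle inhibitor p16, was near the detection limit, at 0.374 and 0.422 CPM with BPTES and 0.352 and 0.360 with DMSO. It was detected in 0.417% and 0.423% of members against 0.308% and 0.319%. After thinning, the shares were 0.0731% and 0.0368% against 0.120% and 0.0845%, below the 0.186% to 0.281% of leukocyte barcodes, while 2.48% to 5.50% of aerocytes held a UMI. Cdkn1a, which encodes p21, had 352 and 374 CPM against 325 and 326. Cdkn2b had 3.37 and 4.53 CPM against 5.09 and 5.69. Trp53 (54.2 and 59.4 CPM against 49.3 and 53.5) and the lysosomal galactosidase Glb1 (29.2 and 25.9 against 34.5 and 33.3) were separated in opposite directions, and Lmnb1 overlapped (21.0 and 20.1 against 23.1 and 19.6).

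Some secreted genes of the same list rested on few cells. Il6 had 10.3 and 14.6 CPM with BPTES and 6.82 and 8.14 with DMSO, and its 10 richest barcodes held 50.6% to 77.6% of its UMIs. Among members without UMIs of 3 markers of another class its log2 fold change was −0.07, against 0.73 among all members. Ccl2 (0.691 and 2.45 CPM against 0.992 and 2.76) and Gdf15 (1.41 and 1.27 against 0.448 and 2.79) overlapped. Igfbp3, a binding protein of insulin-like growth factors, had 9.56 and 5.77 CPM against 17.2 and 16.0, with 52.1% to 75.7% of its UMIs in 10 barcodes. Bcl2, Plaur and Hmgb1 were spread over more cells, with at most 8.36% of UMIs in 10 barcodes. Bcl2, which restrains apoptosis, had 78.0 and 124 against 52.8 and 63.7. Plaur, the urokinase receptor, had 226 and 256 CPM against 195 and 215, and Hmgb1 469 and 468 against 416 and 407.

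Leukocyte adhesion and inflammation genes were split, with 7 of 25 higher, 5 lower and a median of 0.03. The median was −0.03 without BPTES replicate 2, 0.15 without BPTES replicate 1, 0.10 without DMSO replicate 1 and 0.01 without DMSO replicate 2. Lipocalin Lcn2 had 10.1 and 20.1 CPM with BPTES and 3.10 and 1.75 with DMSO (log2 fold change 2.66, SE 0.42), in 4.65% and 3.74% of members against 1.35% and 1.73%. The 10 richest barcodes held 29.5% to 78.3% of its UMIs, and after thinning 7.86% to 11.2% of leukocyte barcodes held a UMI, more than any member set. Its log2 fold change was 1.52 without barcodes holding 3 markers of another class. The alarmin Il33 (7.86 and 7.55 CPM against 4.13 and 2.58) and the cyclooxygenase Ptgs2 (10.2 and 5.07 against 2.30 and 2.81) rested on few barcodes in the same way, with 66.1% to 83.7% and 55.6% to 86.7% of UMIs in 10 barcodes.

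Of 21 immediate early genes, 4 lay higher and 7 lower (median −0.07, or −0.24 without BPTES replicate 1, −0.12 without DMSO replicate 2 and −0.04 without DMSO replicate 1). Jun (2177 and 2079 CPM with BPTES, 2305 and 2244 with DMSO) and Fos (1075 and 1016 against 1259 and 1077) differed by −0.10 and −0.16 on the log2 scale. Btg2 had 744 and 632 CPM against 973 and 829.8, while Fosl2 (53.7 and 58.5 against 41.4 and 46.3) and Myc (10.9 and 18.9 against 3.87 and 8.79) lay higher. The list's median was −0.26 in interferon-high general capillary cells, −0.45 in aerocytes and −0.31 in venous cells. In the test of whether the difference itself was of another size in venous cells, 15 of the 21 genes had an unadjusted p under 0.05, where 5.88% of all genes did, and their smallest adjusted p in edgeR was 0.368.

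Of 18 circadian clock genes, 9 lay higher and 2 lower (median 0.21, or 0.06 without DMSO replicate 2 and 0.13 without BPTES replicate 2), with 4 higher at an unadjusted p under 0.05 and 2 called by DESeq2. Per1, a repressor of the clock that light and glucocorticoids induce, had 57.1 and 56.1 CPM with BPTES and 33.2 and 41.4 with DMSO (log2 fold change 0.60, SE 0.11). Per2 had 3.14 and 5.04 CPM against 1.12 and 2.27, and Bhlhe40 68.2 and 99.0 against 59.2 and 55.6. Arntl, the activator that peaks opposite to the Per genes, had 54.9 and 53.1 CPM against 59.0 and 60.0.

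Cell cycle genes were at a low level, and of 20, 6 lay higher and 0 lower (median 0.09, or from 0.05 without BPTES replicate 1 to 0.23 without BPTES replicate 2). Mki67 had 13.2 and 4.20 CPM with BPTES and 4.13 and 3.46 with DMSO, and Top2a 13.5 and 4.87 against 4.58 and 4.20. Mki67 was detected in 0.590% and 0.881% of members against 0.538% and 0.879%, and the 10 richest barcodes held 81.2% to 98.0% of its UMIs. After thinning the shares were 0.329% and 0.368% against 0.200% and 0.451%, below the 1.82% to 2.63% of leukocyte barcodes.

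Among all tested genes, those with the smallest p that lay higher with BPTES (at least 10 CPM and a log2 fold change of at least 0.5) were led by Tsc22d3, which encodes the glucocorticoid-induced leucine zipper. It had 82.8 and 81.4 CPM with BPTES and 46.7 and 50.8 with DMSO (log2 fold change 0.75, SE 0.07, DESeq2 adjusted p = 7.73e-09, not called by edgeR over all members). It was detected in 47.2% and 48.5% of members against 34.1% and 34.5%, and after thinning in 20.4% and 19.7% against 12.5% and 13.5%. The same log2 fold change was 0.77 in interferon-high general capillary cells, 0.73 in aerocytes and 0.96 in venous cells. Leukocyte barcodes held it in 44.4% and 42.4% against 41.7% and 45.3%, where the groups overlapped.

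Nos2, the inducible nitric oxide synthase, had 17.0 and 19.0 CPM with BPTES and 8.74 and 8.43 with DMSO (log2 fold change 1.07, SE 0.11). It was detected in 13.6% and 14.9% of members against 7.30% and 7.48%, and after thinning in 4.35% and 4.67% against 2.44% and 2.31%. Leukocyte barcodes held it in 0.0353% to 0.0934% and venous cells in 0% to 1.03%. Tiam1, an activator of the GTPase Rac, had 34.6 and 36.6 CPM against 18.0 and 21.0, and the membrane protein Emp2 had 65.4 and 66.7 against 43.4 and 47.0. The other genes of this group were Tubb2b, a tubulin (27.4 and 28.9 against 18.7 and 17.8), Inafm2 (45.7 and 50.2 against 30.3 and 33.7), the sodium channel subunit Scn3b (194 and 203 against 132 and 147), the secreted glycoprotein Lrg1 (83.1 and 75.6 against 56.7 and 49.9), the histone chaperone Set (162 and 181 against 117 and 125), the prion protein Prnp (14.6 and 17.3 against 8.80 and 8.61), Cd34 and Alcam.

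Alcam, an adhesion molecule, had 41.1 and 64.0 CPM with BPTES and 18.4 and 19.3 with DMSO (log2 fold change 1.48, SE 0.21), but its 10 richest barcodes held 40.5% to 64.6% of its UMIs. Among members without UMIs of 3 markers of another class the log2 fold change was 0.28. For Nos2 it was 1.21 in those members, for Emp2 0.69 and for Tsc22d3 0.76, and edgeR called these 3 genes higher there. In the same members it called 5 genes lower, namely Fabp4, Ankrd63, Trim69, Stk4 and Rgs6, at adjusted p = 0.0486 for each of the 8. As given above, the sum of Fabp4 over all members rests on few cells.

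The genes with the smallest p that lay lower with BPTES were Zfp641, Lmntd1, Angpt1, Rgs6, Bmp4, Stk4, Trim69, Ankrd63, Ghr, Cdc14b, Slc1a1 and Garnl3. Ghr, the growth hormone receptor, had 827 and 819.7 CPM with BPTES and 1189.5 and 1193 with DMSO (log2 fold change −0.53, SE 0.07). Stk4, a kinase of the Hippo pathway, had 205 and 197 CPM against 392 and 328 (−0.84, SE 0.10). Rgs6, a regulator of G-protein signalling, had 28.4 and 29.5 CPM against 54.8 and 47.2 (−0.82, SE 0.09). After thinning, Stk4 was detected in 42.5% and 38.9% of members against 63.6% and 57.4%, and in leukocyte barcodes in 48.6% and 48.2% against 50.3% and 48.5%. Ghr was in 77.0% and 75.8% against 88.2% and 86.2%, with 7.97% to 10.1% of leukocyte barcodes. The 2 groups of libraries were apart for both genes in the members.

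The zinc finger gene Zfp641 had 89.1 and 87.0 CPM with BPTES and 131 and 129.8 with DMSO, and the ubiquitin ligase Trim69 had 47.5 and 47.7 against 99.99 and 79.2. Slc1a1, a glutamate transporter, had 15.2 and 14.7 CPM against 28.2 and 23.2. The phosphatase Cdc14b (43.5 and 47.5 against 72.8 and 64.9), Garnl3 (125 and 109 against 192 and 172), Lmntd1 (16.8 and 18.0 against 31.8 and 29.6) and Ankrd63 (8.50 and 6.76 against 16.7 and 15.8) completed the group.

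**Figure D4:**
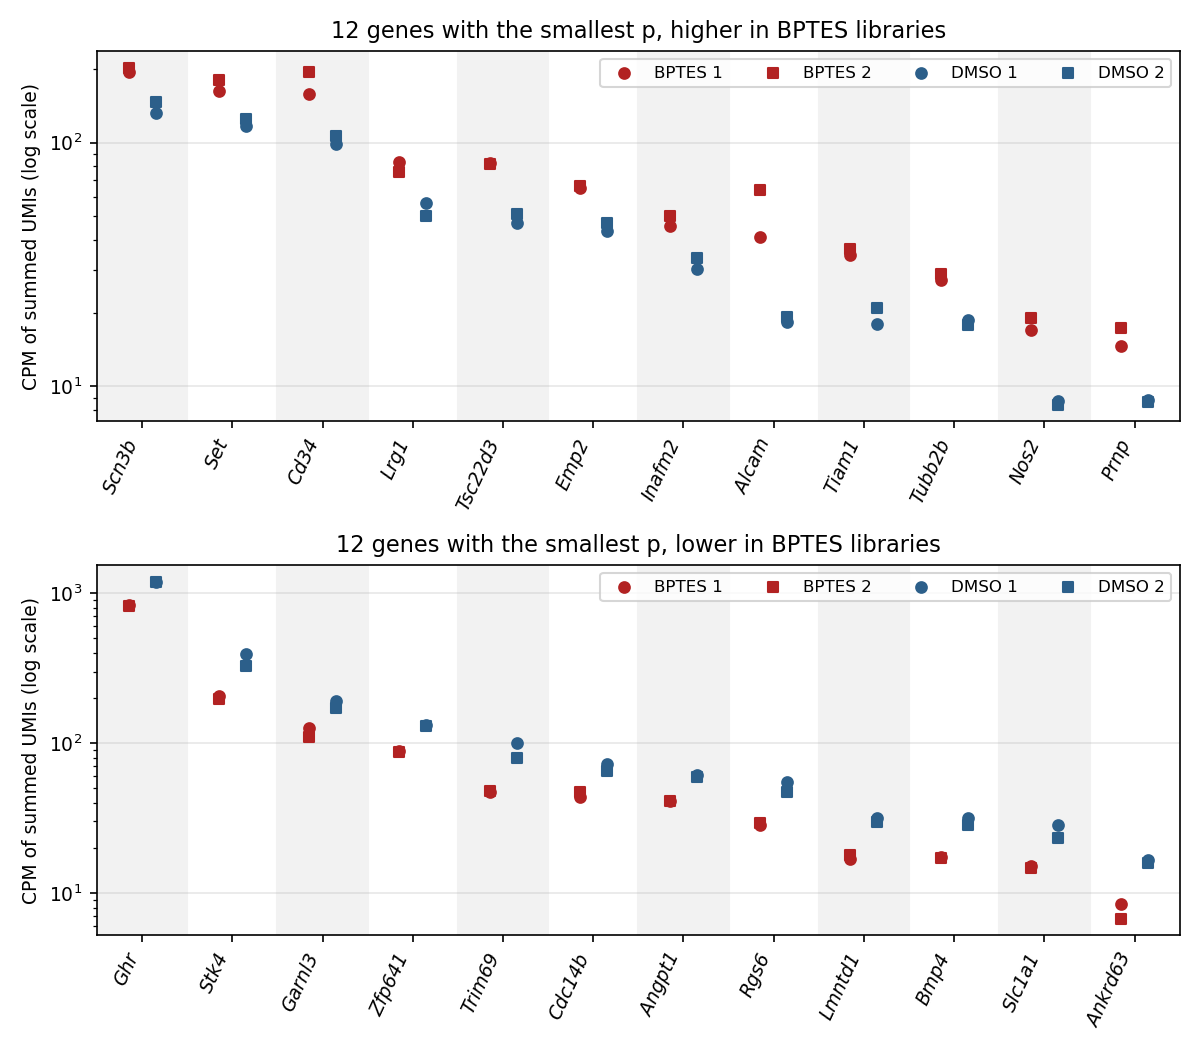
CPM of summed UMIs (log axis) in each library for the 12 genes with the smallest p on the higher side (upper panel) and the lower side (lower panel), BPTES in red and DMSO in blue, replicate 1 as circles and replicate 2 as squares. These genes were picked for groups that do not overlap, and the smallest adjusted p among them was 0.172.

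Markers of other cell classes were present in the members' sums at levels that differed between libraries. No marker of any list was without UMIs. The 10 alveolar type 2 markers summed to 1665 and 3357 CPM with BPTES and 1155 and 353.5 with DMSO, of which Sftpc gave 74.0%. The 8 airway markers summed to 133.5 and 600.1 CPM against 59.2 and 137.6, and the 13 macrophage and monocyte markers to 246.5 and 545.8 against 270.1 and 83.5, 94.0% of it Lyz2. B and plasma cell markers summed to 100.1 and 88.6 CPM against 124.7 and 157.4, with Ebf1 giving 49.6%. The 7 venous markers outside the gate summed to 443.1 and 412.7 CPM against 628 and 540.6, with Vwf giving 54.7%. Of the 10 type 2 genes, 9 lay higher in both BPTES libraries and 0 lower. Of 7 tested airway genes, 5 lay higher and 0 lower (median log2 fold change 2.47, or 0.94 without BPTES replicate 2), and their sums overlapped. Without barcodes holding 3 markers of another class, the airway median was 0.37 over the 5 genes tested there. For the type 2 genes the median was 0.84 in those members, against 1.80 in all members. Of the 10 type 2 genes, 7 still lay higher (26.7% of all genes there) and 1 lower (26.7%). Leaving out those barcodes thus did not remove the difference in type 2 RNA. Of 8 type 1 genes, 5 lay higher and 1 lower, and of 12 tested macrophage and monocyte genes, 2 lay higher and 1 lower. Of 9 B and plasma cell genes, 0 lay higher and 6 lower. Tested mesothelial genes lay 0 higher and 4 lower of 6, and neutrophil genes 0 higher and 4 lower of 8. The part of such RNA in the differences above was not tested, beyond the values given without barcodes that hold 3 markers of another class.

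**Figure D5:**
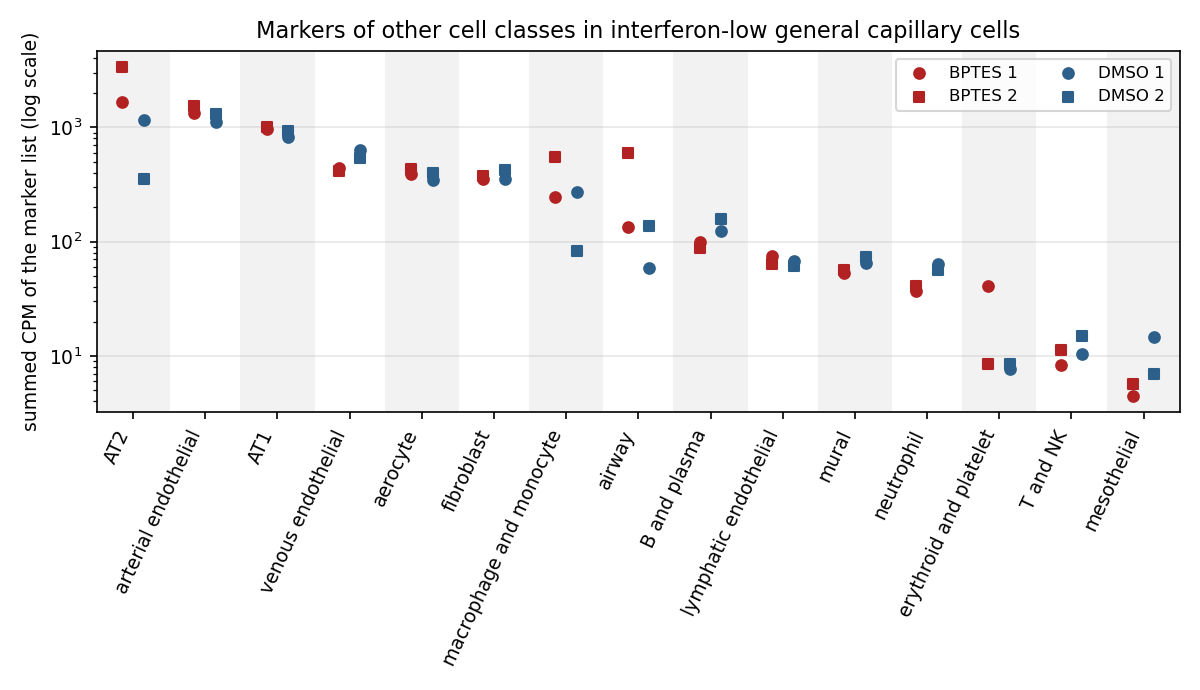
Summed CPM (log axis) of the marker genes of 15 other cell classes in the members of each library, BPTES in red and DMSO in blue, replicate 1 as circles and replicate 2 as squares. Alveolar type 2 markers range from 353.5 CPM in DMSO 2 to 3357 CPM in BPTES 2.

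Levels were compared with those of aerocytes (1235 cells) and venous cells (2027 cells) gated in the same libraries, with the library as a block. Since the cells were picked by marker genes, genes that vary with those markers differ by the choice of cells, and these calls describe the populations. Against aerocytes, edgeR called 7536 of 15070 genes (50.0%), 3763 higher in members (25.0%) and 3773 lower (25.0%). Of the 15 identity genes outside the gate, 11 were higher and 1, Nostrin, was lower. Ptprb had a mean of 3441 CPM in members and 48.5 in aerocytes (log2 difference 6.18, SE 0.19), Cd93 1588 and 15.1, and Glp1r 53.7 and 0.384. Endothelin (Edn1) had 280.7 CPM in members and 1.85 in aerocytes, Kcnh1, a potassium channel, 75.4 and 0.541, and the nuclear factor Tox3 101.7 and 0.792. The largest differences the other way were of Chst9, a sulfotransferase (0.103 CPM in members, 89.9 in aerocytes), Tekt5 (0.0482 and 31.8), Dpysl5 (0.221 and 137.3), Slc5a12 (0.203 and 104.4), the adhesion molecule Ncam1 (0.527 and 196.7) and Ms4a8a (0.164 and 47.1).

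Fewer genes differed in level from venous cells, for which edgeR called 4884 of 15401 genes (31.7%), 2337 higher in members (15.2%) and 2547 lower (16.5%). Of the identity genes, 11 were higher in members and Bmp4 was lower, at 23.6 CPM against 58.3. P-selectin (Selp), which captures leukocytes, had 9.24 CPM in members and 682.1 in venous cells (log2 difference −6.31, SE 0.18), and coagulation factor 5 (F5) had 1.53 and 97.2. Cpe (1.26 and 77.0), Olr1 (0.188 and 10.2), Lpcat2 (1.66 and 87.3) and Cytl1 (3.54 and 182.6) were the next. Higher in members were Spp1 (15.2 against 1.02), Tmem221 (25.8 against 2.93), Sh3gl2 (50.0 against 6.45) and Rorb (29.3 against 4.13). Postn, one of the mural markers, was higher too (10.8 against 1.37), with 5.52 to 17.8 CPM in the members of the libraries. The airway marker Scgb3a1 headed that side at 14.9 against 0.508 CPM, with 48.9 CPM in BPTES replicate 2 and 2.73 to 5.31 in the members of the other libraries. Of the interferon response genes, 0 of 41 were higher in members and 34 lower, where only the members had been held to few interferon genes. All 12 heat shock genes called against venous cells, of 16, were lower in members.

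Whether the BPTES difference itself was of another size in members than in aerocytes or venous cells was tested as an interaction. Against aerocytes edgeR called 0 of 15070 genes (0%), with 902 at an unadjusted p under 0.05 (5.99%) and a smallest adjusted p of 0.0829. It called 80 without DMSO replicate 2, 37 without DMSO replicate 1, 3 without BPTES replicate 1 and 0 without BPTES replicate 2. Against venous cells it called 0 of 15401 (0%), with 905 at an unadjusted p under 0.05 (5.88%) and a smallest adjusted p of 0.141, and 0 to 2 when 1 library was left out. Nos2 had a log2 fold change of −0.23 in aerocytes against 1.07 in members, with an unadjusted interaction p of 0.00319 in edgeR. For Stk4 it was −0.20 in aerocytes and −0.67 in venous cells against −0.84, for Ghr −0.05 and −0.54 against −0.53, and for Rgs6 −0.01 and −0.27 against −0.82. Trim69 had −0.93 in aerocytes and −0.75 in venous cells against −0.91 in members. All of these genes were picked for a small p in the members, and the interaction uses the same member sums. The choice therefore favours a smaller difference in the other cells and a small interaction p. With all 4 libraries no interaction of these genes passed the adjusted threshold, so a difference between the cell types was not shown. Aerocytes gave 284 to 327 barcodes a library.

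Among the members of one library, the genes that varied most from cell to cell were described by the Fano factor, the variance of a gene's UMIs over its mean after thinning to 3000 UMIs, which is 1 where counts vary by sampling alone. The smallest of the 4 libraries' values had a median of 1.11 over 5094 genes with at least 0.1 UMI a cell, and 193 genes lay above 2. Gm42418, a gene model of high count, had 42.0 to 45.7. Mgp, matrix Gla protein and a marker of arterial cells, had 24.2 to 59.6 at a mean of 0.665 UMIs, the gelsolin gene Gsn 16.1 to 19.8, the proteoglycan gene Dcn 18.2 to 23.9 and Inmt 6.21 to 8.69. The surfactant genes Sftpa1 (6.95 to 54.4), Sftpc (5.28 to 320.4) and Sftpb (5.21 to 21.0) were among the highest, and each differed more than 3-fold between libraries.

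Other genes that varied most included Fos (6.44 to 8.34 at a mean of 3.12 UMIs) and the kinase gene Camk1d (5.77 to 7.11). The adrenomedullin and calcitonin-like receptor Calcrl had 5.23 to 6.57 at 14.1 UMIs and the protease Adamts9 5.04 to 6.20. Adgrl3 had 4.73 to 5.22 at 6.50 UMIs and Timp3, an inhibitor of metalloproteinases, 4.42 to 5.15. Malat1, a nuclear RNA, had 9.18 to 9.83, and the remaining ones of the 20 highest were Gm26870, Atp13a3 (5.53 to 6.64), Prkg1 (4.77 to 5.76), Gpx3 (4.67 to 6.50) and mt-Co1 (4.39 to 5.00). For Calcrl and Adamts9 the highest value was that of BPTES replicate 2, and for Adgrl3 BPTES replicate 1 was the lowest library.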

How the data were processed

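The authors deposited 1 matrix of raw UMI counts per library, made with Cell Ranger 8.0.1 on mm10, per the file headers and the submitters' processing notes; the annotation and filters are not given in the sources used here. Barcodes with at least 500 genes, 1000 UMIs and at most 10% mitochondrial UMIs were kept and gated as described. The gate, the lists and the members were chosen with earlier results of these data known. No doublet caller was run; an alternative leaves out barcodes with UMIs of 3 or more markers of one other class.

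Counts were summed over members per library and tested with edgeR 4.0.16 (quasi-likelihood, TMM scaling, filterByExpr, Benjamini-Hochberg adjustment over all tested genes, 18 gate genes left out). DESeq2 1.42.0, a replicate block, other gates and leaving out each library were alternatives. The members' UMIs per library, given in the report, set the counting error, and the 2 libraries a group limit the precision.

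Named genes were up to 12 per direction with the smallest p (at least 10 CPM, groups apart, absolute log2 fold change of at least 0.5), and in each list the 4 with the highest CPM or the 3 with the smallest p, of which the text gives a part, plus a fixed set (1 gene of it is not reported here), the 20 highest Fano factors and 6 per direction in level. Glp1r, Nostrin, Iigp1, Gbp3, Stat2, Hspa1b and Bag3 were added after their values were seen. The replicate numbers were checked for pairing as described under the dependence on processing.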

Additional observations from a re-analysis of the deposited data

How the results depend on the processing

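The number of genes called between BPTES and DMSO depended on the setting. It was 0 with relative log expression scaling, a robust prior, 4 capillary markers, a mitochondrial limit of 5%, the interferon-high cells included, without the 5% of barcodes with most UMIs and with the gate on thinned barcodes. It was 210 with no filter on low counts (131 higher, 79 lower), 541 with DESeq2, 8 without barcodes with 3 markers of another class, and 0 to 459 when 1 library was left out. The cause was not tested. Interactions with aerocytes numbered 95 with no filter on low counts and 0 to 80 when 1 library was left out; those with venous cells numbered 27 and 0 to 2. Level differences ranged from 6530 to 6857 genes against aerocytes and from 3614 to 4071 against venous cells when 1 library was left out. The difference in the share of general capillary cells among barcodes without Ptprc ranged from −2.47 to 0.58 percentage points. With the replicate number as a block, 1040 genes were called (664 higher, 376 lower). Over 8729 genes, deviations of same-numbered libraries correlated at 0.174, and with 2 pairs the numbers were not taken to pair the libraries. For 137 named genes, 1797 of 2054 values kept direction and side of the threshold, 242 were newly called and 15 reversed. The reversed log2 fold changes were, for Alcam, −0.0917 with the gate on thinned barcodes; for Lmnb1 0.0710 without DMSO replicate 1; for Il6 −0.0675 without other-class barcodes, −0.54 without the richest barcodes and −0.31 with the thinned gate; for Cdkn2a −0.0772 with 4 markers; for Ccl2 0.35 without BPTES replicate 1 and 0.66 without DMSO replicate 2; for Gdf15 0.0233 with the block, 1.57 without DMSO replicate 2, 0.0937 with interferon-high cells and 0.19 with the thinned gate; for Hspa1b −0.33 and for Bag3 −0.11 without BPTES replicate 2; and for Bag3 −0.05 without DMSO replicate 2. Over the 4 libraries left out in turn, the far ends of these ranges were −0.17 for Lmnb1, −1.46 for Ccl2, −1.06 for Gdf15, 1.31 for Hspa1b and 0.12 for Bag3. Of 345 list medians, 241 moved by less than the spread between replicates. The sign of 17, in 6 lists, changed, all of them between −0.0327 and 0.0568. With 2 libraries a group, no permutation p can go below 0.333.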
